A study of Mus musculus with 107 samples.

Results

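Matrix metalloproteinases and their tissue inhibitors were followed in mouse ear skin 24 h after sulfur mustard, bis-(2-chloroethyl) sulfide, a blistering agent that alkylates DNA and protein. The set is fixed by gene symbol and holds 10 genes, namely Mmp2, Mmp3, Mmp8, Mmp9, Mmp10, Mmp13, Mmp14, Timp1, Timp2 and Timp3. They have 21 of the 22690 probe sets of the first Affymetrix mouse array (array A), which names 12394 genes, and 1 of the 22575 probe sets of its companion (array B). On array A, 18 of these 21 probe sets, of 9 genes, were tested. Each had a mean scaled signal of at least 100 over the mustard ears and their controls together, though not always in each group. Not tested were the only Mmp13 probe set, 1 of the 2 for Mmp9 and 1 of the 6 for Timp2.

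On the right ear, 0.08 mg of mustard dissolved in methylene chloride (5 µL) was applied alone (5 ears) or 15 min after a drug in ethanol. The drugs were dimercaprol, a dithiol chelator (6.25 mg, 6 ears), indomethacin, a cyclooxygenase inhibitor (1.34 mg, 6 ears), and octylhomovanillamide, a capsaicin analogue (0.6 mg in the treatment label and 0.585 mg in the protocol, 5 ears). Methylene chloride alone was given to left ears of the mustard series (21 ears), and 17 animals have both ears measured. Other animals received dimercaprol (4 ears), indomethacin (4 ears) or octylhomovanillamide (5 ears) without mustard, or nothing (naive, 5 ears of 3 animals). Ethanol was given to the left ear of animals with a drug on the right ear (3 ears). Ears of animals without mustard were hybridised to array A only. Ears with mustard alone are labelled without ethanol, so a drug and its ethanol cannot be told apart when pretreated ears are set against them. The labels used here give no strain, sex or age.

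Biopsies of 8 mm took the full mix of cells at the site. The summed signal of 7 keratinocyte markers ranged from 92520 to 122200 in mustard ears and from 85440 to 122200 in methylene chloride ears, and 7 skeletal muscle markers were bright too, with sums of 39080 to 63800 in mustard ears and 11440 to 76320 in methylene chloride ears. All signals here are scaled to an array mean of 500 and have no unit. In such bulk samples, a change in the number of cells of a type and a change in RNA per cell cannot be told apart. Mustard ears of animals 5 and 37 stood apart in RNA quality: the log2 ratio of the 3′ to the 5′ Gapdh control was 0.63 and 0.78 there, against -0.05 to 0.08 in the other 3 mustard ears and -0.25 to 0.24 in methylene chloride ears. Arrays of mustard ears were also dimmer before scaling, with trimmed mean signals of 66.9 to 137.4, against 111.5 to 221.8 for methylene chloride ears. The part of RNA quality and brightness in the results was not tested beyond the fits given beside them.

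Matrix metalloproteinases are zinc enzymes that are made as inactive precursors and cut collagens, laminins and other matrix proteins. Mmp3 and Mmp10 (stromelysins 1 and 2) have broad substrates, Mmp8 and Mmp13 are collagenases, Mmp2 and Mmp9 are gelatinases, and Mmp14 is anchored in the cell membrane and activates the Mmp2 precursor. Timp1, Timp2 and Timp3 bind active metalloproteinases and block them, Timp3 while held in the matrix. In wounded skin, stromelysin and collagenase genes are known targets of the AP-1 transcription factors (Fos and Jun family dimers).

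A group of 4 members, in the order Mmp13, Mmp3, Mmp10 and Mmp8, lies in a run of metalloproteinase genes on chromosome 9. The other members lie on chromosomes 2 (Mmp9), 8 (Mmp2), 10 (Timp3), 11 (Timp2), 14 (Mmp14) and X (Timp1). RefSeq promoters, 250 bases before to 50 after the gene start, were matched for 8 members; Mmp2 and Mmp9 had no entry. The AP-1 motif, TGAGTCA or its reverse complement TGACTCA, was searched on both strands, and was found in 3 of the 8 promoters, those of Mmp3, Mmp10 and Mmp13, against 5.2% of all 32851 promoters. It began 63 bases before the gene start in Mmp10, 46 in Mmp3 and 35 in Mmp13. The 120 bases before the start of these genes are shown with the motif in capitals, because they set the strongest responder, Mmp10, beside its neighbours, and those of Timp1 and Mmp8, which have no match, are shown for comparison (GRCm38.p6, all on the plus strand).
Mmp10, chr9:7502222-7502341: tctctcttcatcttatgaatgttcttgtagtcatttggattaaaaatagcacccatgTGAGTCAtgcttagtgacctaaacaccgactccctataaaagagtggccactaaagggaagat
Mmp3, chr9:7445702-7445821: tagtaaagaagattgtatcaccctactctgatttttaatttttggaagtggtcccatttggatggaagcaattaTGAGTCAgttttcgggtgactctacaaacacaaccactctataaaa
Mmp13, chr9:7272394-7272513: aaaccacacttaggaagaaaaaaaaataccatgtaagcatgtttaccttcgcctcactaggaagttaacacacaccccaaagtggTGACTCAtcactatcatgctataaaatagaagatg
Mmp8, chr9:7558309-7558428: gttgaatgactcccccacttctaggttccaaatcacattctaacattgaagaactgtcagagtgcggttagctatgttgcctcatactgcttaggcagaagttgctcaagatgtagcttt
Timp1, chrX:20870046-20870165: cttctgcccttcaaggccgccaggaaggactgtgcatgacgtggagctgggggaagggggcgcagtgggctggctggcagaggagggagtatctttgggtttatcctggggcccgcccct
A match describes these letters and is not a measured binding site.

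What mustard alone does to these genes was asked by setting mustard ears against methylene chloride ears. All the former are right ears and all the latter are left ears of the mustard series. Ear side, and any effect of a treated right ear on the left one, cannot be told apart from mustard here. Of the 9 members tested, 6 changed: Mmp10, Mmp3 and Timp1 rose, and Mmp14, Mmp2 and Timp3 fell. Over all probe sets of array A, 44.4% passed the same test (limma, Benjamini-Hochberg adjusted p under 0.05, either direction), and 19.8% were higher, so the members' count is to be read against a broad response. The median log2 fold change of the 9 members was -0.06, and that of all probe sets was -0.01. With no rescaling of the arrays, the median of all probe sets moved to -0.61 (279 higher and 10365 lower), and the members split into 2 higher (Mmp10 and Timp1) and 6 lower (Mmp14, Mmp2, Timp3, Mmp8, Mmp9 and Timp2), with Mmp3 not called. Relative to that median the folds were 3.56 for Mmp10, 1.68 for Timp1, 0.89 for Mmp3, -0.49 for Mmp14, -0.52 for Mmp2 and -0.72 for Timp3. Fold changes here are on the scale of log2(signal + 16), which understates changes of dim genes.

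Mmp10, stromelysin 2, changed most. Its signal was 292.5, 1212.5, 791.1, 107.4 and 1008.3 in the mustard ears of animals 1, 3, 5, 36 and 37. In methylene chloride ears the lowest, median and highest signals were 12.1, 26.3 and 90.7. All 5 mustard ears lay above all 21 methylene chloride ears, the ear of animal 36 by little. The means were 682 ± 469 in mustard ears (SD, n = 5) and 31.2 ± 16.5 in methylene chloride ears (SD, n = 21), and the log2 fold change was 3.53 (SE 0.44, limma adjusted p = 2.49e-08). Without any single ear it ranged from 3.22 to 4.05. The SE rests on a spread shared by all groups of the fit. Mustard ears varied more than methylene chloride ears, so the SE and p may overstate the precision of this fold. With methylene chloride ears all below 100, Mmp10 reached the minimum for the test only through some of the ears given mustard. Its call also held with no filter on low signals.

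Mmp3, stromelysin 1, lies in the same run of genes on the chromosome, with Mmp1a between it and Mmp10, and rose less. The mustard ears of animals 1, 3, 5 and 37 had 700.1, 884, 842.6 and 828.9, and that of animal 36 had 187.8. Methylene chloride ears had 193.2 at the lowest, 302.8 at the median and 638.8 at the highest. In all, 4 mustard ears were above every methylene chloride ear, and the other lay below every one of them. The log2 fold change was 0.90 (SE 0.25, limma adjusted p = 0.00291). It was 1.30 without the ear of animal 36, 0.60 (adjusted p = 0.147) without the ears of animals 5 and 37, and 0.28 (adjusted p = 0.30) with no rescaling of the arrays.

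Timp1, the secreted inhibitor that is induced in many inflamed tissues, had 1051, 1360.9, 1637.8, 522.3 and 1240.7 in the mustard ears of animals 1, 3, 5, 36 and 37. Its methylene chloride ears ranged from 188.6 to 605.5 with a median of 320.6. Only the mustard ear of animal 36 lay within that range. The log2 fold change was 1.70 (SE 0.25, limma adjusted p = 4.97e-07).

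**Figure D1:**
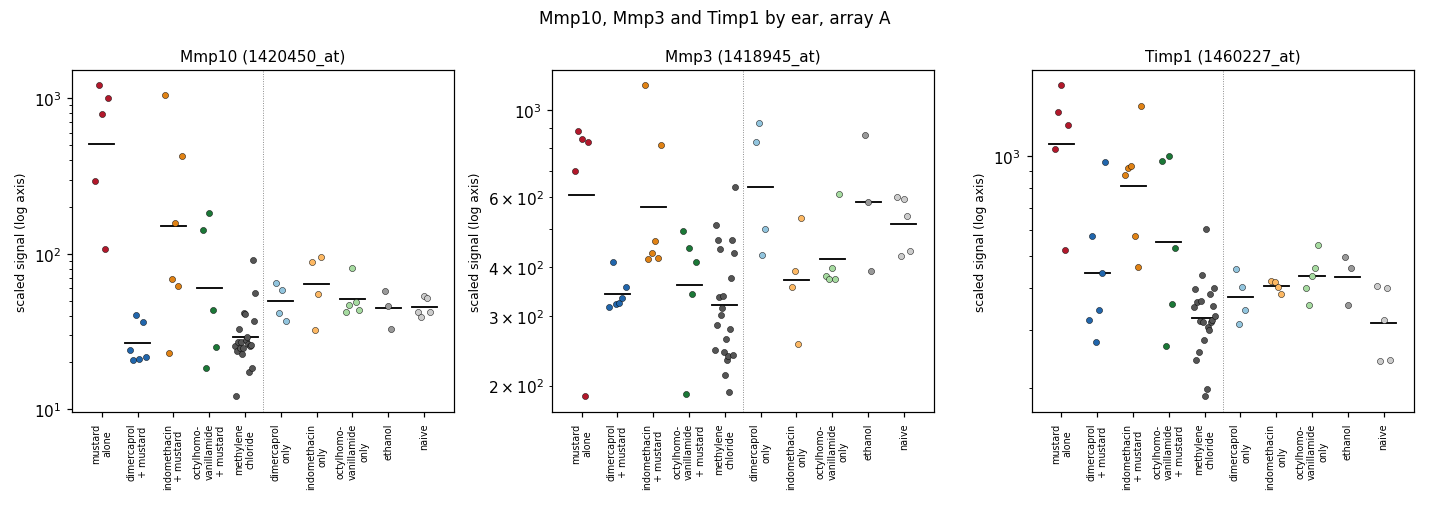
Scaled signal (log axis) of Mmp10, Mmp3 and Timp1 in each ear of array A by group. Points are ears and bars are means of log2(signal + 16) turned back to signal. The 5 mustard ears of Mmp10 lie above the highest methylene chloride ear (90.7), and the 6 dimercaprol then mustard ears lie between 20.8 and 40.6.

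The ear of animal 36, lowest of the mustard ears for all 3 genes, was also lowest for neutrophil markers. The summed signal of the 11 markers on the array was 5330 there and 31480 to 41070 in the other 4 mustard ears, against 1329 to 2066 in methylene chloride ears. Of the 7 neutrophil markers tested, 6 were higher and 1, Mpo (myeloperoxidase), was lower in mustard ears. Most of the sum came from S100a8 (log2 fold change 5.69, SE 0.53, limma adjusted p = 4.2e-11) and S100a9 (5.45, SE 0.53, adjusted p = 1.18e-10), which stressed keratinocytes are also known to express. Csf3r, the neutrophil growth factor receptor, was higher too (1.63, SE 0.29, adjusted p = 1.22e-05), and Camp, a granule gene, had means of 20.7 in mustard ears and 34.7 in methylene chloride ears. Of 7 macrophage markers tested, 3 were higher and none was lower (Cd68 1.16, Cd14 1.48, Msr1 0.88 on the log2 scale). Beside both marker counts, 19.8% of all probe sets were higher and 24.5% lower. The part of these cells in the members' changes was not tested.

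Mmp8 and Mmp9, which neutrophils store in their granules, did not pass the test. Mmp8, the neutrophil collagenase, had 52, 63.7, 112.4, 90.3 and 166.7 in the mustard ears of animals 1, 3, 5, 36 and 37, all inside the methylene chloride range of 33.8 to 223.6 (median 99). Its log2 fold change was -0.07 (95% interval -0.52 to 0.38, limma adjusted p = 0.823), and -0.61 (adjusted p = 0.0298) with no rescaling, equal to the median of all probe sets there. Mmp9, gelatinase B, had 158.8, 227.8, 209.2, 268.3 and 291.5 in those ears, against 127.2 to 357.5 (median 213.4) in methylene chloride ears. The log2 fold change was 0.08 (95% interval -0.24 to 0.40, adjusted p = 0.709), and it changed sign with no rescaling, to -0.50 (adjusted p = 0.00951). Relative to the median of all probe sets there, the Mmp9 fold was 0.11. A second, dimmer Mmp9 probe set averaged 80.7 ± 58.6 in mustard ears (SD, n = 5) and 58.9 ± 38.6 in methylene chloride ears (SD, n = 21) and was below the minimum for the test.

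Mmp13, the collagenase of the same chromosome 9 run, was dim throughout. Its single probe set had 17.9, 37, 58, 9.1 and 31.4 in the mustard ears of animals 1, 3, 5, 36 and 37, against 1.4 to 58 (median 13.6) in methylene chloride ears. The groups overlapped, and with no filter on low signals the log2 fold change was 0.49 (SE 0.30, limma adjusted p = 0.221). In the same fit Mmp13 was higher in indomethacin then mustard ears than in methylene chloride ears (0.74, SE 0.28, adjusted p = 0.0416). The values were highest, at 124.3 and 72.1, in the indomethacin then mustard ears of animals 16 and 21.

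The members that fell were Mmp14, Mmp2 and Timp3, genes that are bright in unexposed skin. Mmp14, the membrane-anchored activator of Mmp2, had 509.7, 554.7, 743.5, 930.3 and 480.6 in the mustard ears of animals 1, 3, 5, 36 and 37, against 633.1 to 1374.9 (median 832.5) in methylene chloride ears. In 3 mustard ears the signal was below that of every methylene chloride ear. Its log2 fold change was -0.48 (SE 0.15, limma adjusted p = 0.00588), and the dimmer probe set gave -0.78 (SE 0.13, adjusted p = 2.79e-06). On array B a further Mmp14 probe set averaged 392 ± 141 in mustard ears (SD, n = 5) and 417 ± 141 in methylene chloride ears (SD, n = 21), with a log2 fold change of -0.06 (95% interval -0.59 to 0.48, adjusted p = 0.894). It did not pass the test there, where 26.1% of probe sets did.

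Mmp2, gelatinase A, had 1204.3, 1873.3, 1394.4, 1159.3 and 1641.3 in the mustard ears of animals 1, 3, 5, 36 and 37, against 1180.1 to 4195.5 (median 1946.7) in methylene chloride ears. The groups overlapped, and the log2 fold change was -0.50 (SE 0.20, limma adjusted p = 0.038). The other Mmp2 probe set gave -0.31 (SE 0.22, adjusted p = 0.249), and the call was lost without any of 3 mustard ears (animals 1, 5 and 36), with a highest adjusted p of 0.108.

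Timp3, the matrix-bound inhibitor, had 1358.4, 1965.3, 982.9, 3087.3 and 1249.7 in the mustard ears of animals 1, 3, 5, 36 and 37, against 1389.7 to 5451.4 (median 2365) in methylene chloride ears. The signals of 3 mustard ears lay below the methylene chloride range. The log2 fold change was -0.70 (SE 0.25, limma adjusted p = 0.0204). Of the 4 Timp3 probe sets, 2 fell and the others gave -0.27 and -0.66. The call was lost without the ear of animal 1, 5 or 37, with a highest adjusted p of 0.119.

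Timp2, the inhibitor that also takes part in Mmp2 activation by Mmp14, did not pass the test in any of its 5 probe sets. The brightest had 1306, 2554, 1971, 2454 and 1612.9 in the mustard ears of animals 1, 3, 5, 36 and 37, against 1326.3 to 3365.3 (median 1990.8) in methylene chloride ears. Its log2 fold change was -0.06 (95% interval -0.46 to 0.34, limma adjusted p = 0.834), and the others ran from -0.65 to 0.36. With no rescaling it was -0.69 (adjusted p = 0.0136), and -0.08 relative to the median of all probe sets.

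Only Mmp10 and Timp1 stayed past the threshold when the Gapdh ratio or the array brightness was a covariate, or when the mustard ears of animals 5 and 37 were left out, so that 2 members in place of 6 were called under each of those 3 settings. This drop is not shown to be particular to the members. For dimercaprol against mustard alone, which shares the mustard ears, calls over all 15400 probe sets fell from 4302 to 1790, 347 and 1459 under the same settings. Several of the folds whose calls were lost stayed near their size: Mmp14 gave -0.44 with the Gapdh ratio and -0.44 without the 2 ears, Timp3 -0.70 with brightness, and Mmp2 -0.54 with brightness and -0.55 without the 2 ears. Other folds of the same genes shrank. Mmp14 moved to -0.34 with brightness (-0.48 in the main fit), and Mmp2 to -0.36 with the Gapdh ratio (-0.50 in the main fit). Timp3 moved to -0.35 with the Gapdh ratio and -0.36 without the 2 ears, and Mmp3 to 0.69 with the Gapdh ratio and 0.63 with brightness. With the animal as a fixed replicate block, Mmp2 was no longer called (-0.31, adjusted p = 0.318).

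**Figure D2:**
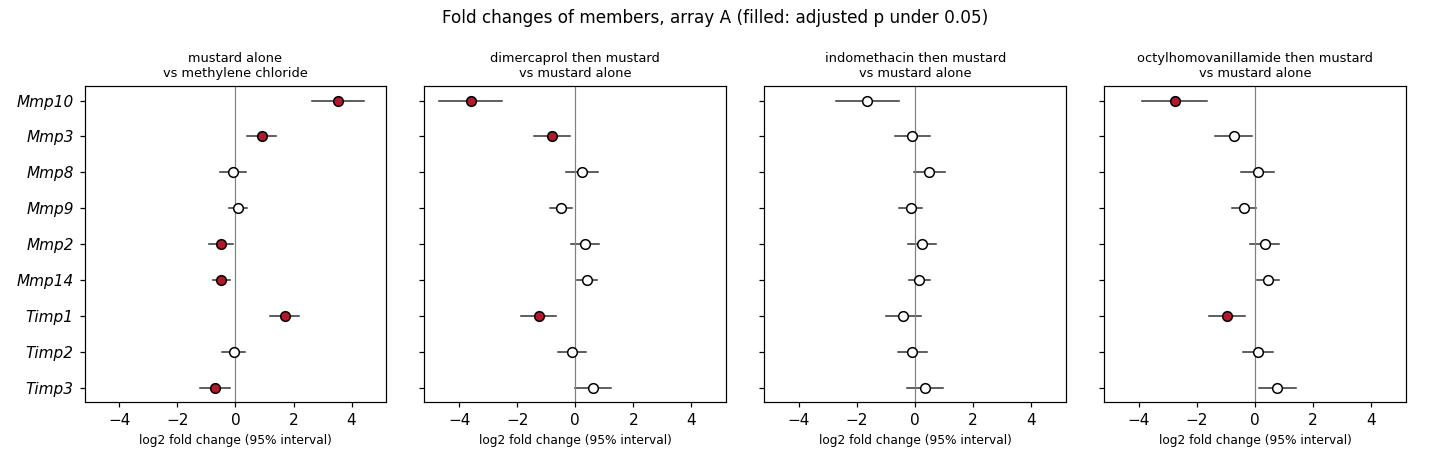
Log2 fold changes with 95% intervals of the 9 members tested on array A, in mustard ears against methylene chloride ears and in each drug then mustard group against mustard alone. Filled points passed an adjusted p of 0.05. Mmp10 lies farthest from 0 in each panel, at 3.53 for mustard, -3.61 after dimercaprol, -1.65 after indomethacin and -2.77 after octylhomovanillamide.

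Whether a drug given before mustard changes these levels was asked by setting each pretreated group against mustard alone. The 3 comparisons share the 5 mustard ears with each other and with the comparison above, so their values are given side by side.

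After dimercaprol, 3 of the 9 members were lower than with mustard alone, Mmp10, Timp1 and Mmp3, where 27.9% of all probe sets changed. Mmp10 had 24.2, 20.8, 40.6, 20.9, 36.5 and 21.7 in the dimercaprol then mustard ears of animals 6, 8, 9, 10, 11 and 12, every value below the lowest mustard ear (107.4). Its log2 fold change was -3.61 (SE 0.54, limma adjusted p = 1.23e-05). Timp1 had 276 at the lowest, 394.9 at the median and 963.5 at the highest, so that it overlapped the mustard ears (522.3 to 1637.8), and gave -1.26 (SE 0.30, adjusted p = 0.00156). Mmp3 had 315.6, 328.8 and 410.2 at the lowest, median and highest, all below 4 of the 5 mustard ears and above the other (187.8), and gave -0.80 (SE 0.30, adjusted p = 0.0412). The Mmp3 call was lost without any of 8 of the 11 ears (highest adjusted p = 0.124), and its fold was -1.21 (adjusted p = 0.000533) without the mustard ear of animal 36. Of the members that fell with mustard, Mmp14 gave 0.41 (adjusted p = 0.0796) in its brighter probe set and 0.73 (adjusted p = 0.00043) in its dimmer one, and Timp3 gave 0.62 (adjusted p = 0.126). Median fold changes were -0.11 over members and 0.01 over all probe sets. Mmp3 changed sign with no rescaling, to 0.08 (adjusted p = 0.806). The median of all probe sets was 0.87 there, and Mmp3 lay at -0.8 relative to it. None of the 3 calls held with the animal as a fixed replicate block, which rests on the 17 animals with both ears (Mmp10 -3.01, adjusted p = 0.0699, Timp1 -1.31, adjusted p = 0.0796, Mmp3 -0.90, adjusted p = 0.19). Calls over all probe sets fell under that block too, from 4302 to 332 of 15400.

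The ear of animal 12 had the highest Timp1 signal of the dimercaprol group (963.5) and also its highest neutrophil marker sum (18270), while its Mmp10 signal was 21.7. In the other 5 ears of this group the marker sum was 1486 to 6752.

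After octylhomovanillamide, Mmp10 and Timp1 were lower than with mustard alone, 2 of 9 members, where 18% of all probe sets changed. Mmp10 had 142, 18.3, 183.3, 43.6 and 25.2 in the octylhomovanillamide then mustard ears of animals 27, 28, 29, 30 and 33, against 107.4 to 1212.5 in mustard ears. Of these ears, 2 exceeded the lowest mustard ear, and the log2 fold change was -2.77 (SE 0.56, limma adjusted p = 0.00129). Timp1 had 966.6, 268.5, 1001.8, 357.8 and 529.8 in the same order, against 522.3 to 1637.8 in mustard ears, and gave -0.96 (SE 0.32, adjusted p = 0.0283). Mmp3 gave -0.74 (SE 0.31, adjusted p = 0.0951), and -1.14 (adjusted p = 0.00217) without the mustard ear of animal 36. Median fold changes were 0.09 over members and 0.02 over all probe sets. Neither call held with the animal as a fixed replicate block (Mmp10 -2.09, adjusted p = 0.231, Timp1 -0.79, adjusted p = 0.304), with the Gapdh ratio as a covariate (Mmp10 -2.19, adjusted p = 0.0891, Timp1 -0.92, adjusted p = 0.195), or without the mustard ears of animals 5 and 37 (Mmp10 -2.23, adjusted p = 0.072, Timp1 -0.71, adjusted p = 0.304).

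The ears of animals 27 and 29, high in Mmp10 and Timp1 within the octylhomovanillamide group, were also its highest for Mmp3 (493.9 and 446.2) and for the neutrophil marker sum (10300 and 20910, against 2498 to 5495 in the other 3 ears).

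After indomethacin, no member passed the test against mustard alone by limma, and 1 had an unadjusted p under 0.05, where 2.14% of all probe sets passed. Mmp10 had 1050.3, 23, 69, 157.9, 62.4 and 425.5 in the indomethacin then mustard ears of animals 16, 17, 18, 19, 21 and 22, against 107.4 to 1212.5 in mustard ears, a spread that covered both mustard and methylene chloride levels. Its log2 fold change was -1.65 (SE 0.54, limma adjusted p = 0.0826), and it passed when the mustard ear of animal 1 or 36 or the indomethacin ear of animal 16 or 22 was left out (lowest adjusted p = 0.0103). Timp1 ranged from 463.4 to 1421.9 (median 901.4) in indomethacin then mustard ears, against 522.3 to 1637.8 in mustard ears, and gave -0.41 (95% interval -1.02 to 0.20). Mmp3 had 1153.1 and 814.6 in the ears of animals 16 and 22 and 418.8 to 464.2 in the other 4, and gave -0.10 (95% interval -0.70 to 0.51). Only the dimmer Mmp14 probe set was higher (0.65, SE 0.15, adjusted p = 0.0344). Median fold changes were -0.10 over members and 0.00 over all probe sets.

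The array B probe set of Mmp14 did not pass in any of the 3 comparisons with mustard alone. Its log2 fold change was 0.40 after dimercaprol, 0.05 after indomethacin and 0.17 after octylhomovanillamide (limma adjusted p = 0.424, 0.958 and 0.806), where 16.5%, 3.17% and 9.57% of the array's probe sets passed.

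The pretreated groups were also set against the 21 methylene chloride ears, again right ears against left ears. Indomethacin then mustard ears had 4 of 9 members changed, where 37.3% of all probe sets were: Mmp10 (1.88, SE 0.41, limma adjusted p = 0.000287), Timp1 (1.28, SE 0.23, adjusted p = 2.07e-05) and Mmp3 (0.80, SE 0.23, adjusted p = 0.00508) were higher and Mmp14 (-0.34, SE 0.13, adjusted p = 0.0446) was lower. For Mmp10 3 of the 6 ears, 4 for Timp1 and 2 for Mmp3 lay above every methylene chloride ear. With the animal as a fixed replicate block 2 calls held, Timp1 and Mmp3, and Mmp10 gave 1.36 (adjusted p = 0.125). The Mmp14 call was lost without any of 13 of the 27 ears (highest adjusted p = 0.188), and held in 7 of 13 alternative settings.

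Dimercaprol then mustard ears had no member called against methylene chloride by limma, where 3.2% of all probe sets were, and 1 with an unadjusted p under 0.05. Mmp10 gave -0.08 (95% interval -0.91 to 0.74), Timp1 0.43 (-0.03 to 0.90) and Mmp3 0.09 (-0.37 to 0.56). Every ear of both groups had an Mmp10 signal under 100, so the Mmp10 fold compares dim signals. Octylhomovanillamide then mustard ears likewise had no member called, where 2.87% of probe sets were, and 1 with an unadjusted p under 0.05. There Mmp10 gave 0.76 (95% interval -0.13 to 1.65), Timp1 0.73 (0.23 to 1.23, adjusted p = 0.102) and Mmp3 0.16 (-0.34 to 0.66). A p that misses the threshold does not show that these levels equal those of methylene chloride ears, and 2 of the 5 octylhomovanillamide ears exceeded all methylene chloride ears for both Mmp10 and Timp1.

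**Figure D3:**
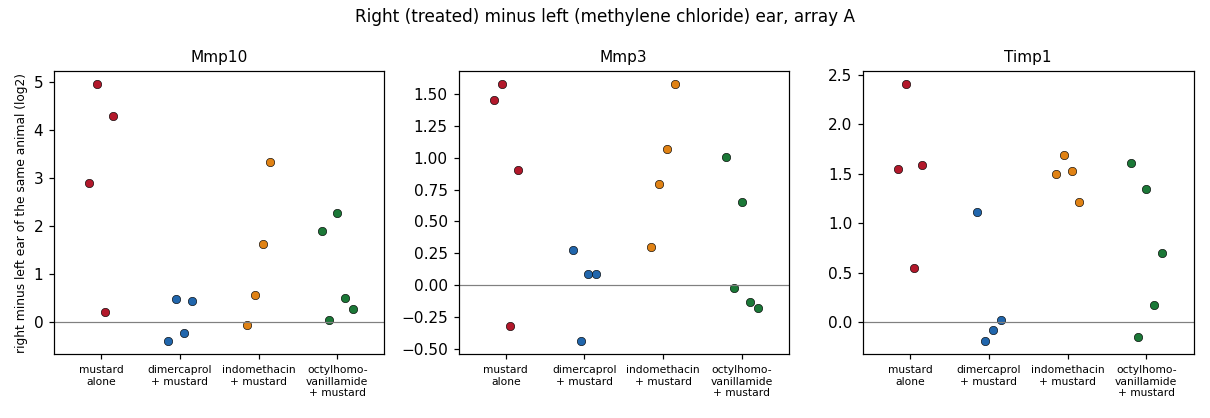
Difference in log2(signal + 16) between the right ear, which received mustard with or without a drug, and the left, methylene chloride ear of the same animal, for the 17 animals with both ears. Each point is an animal. All 4 mustard pairs lie above 0 for Mmp10 and Timp1, with that of animal 36 lowest in each panel.

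The genes were also compared within the 17 animals with both ears measured, where ear side and treatment again cannot be told apart. Right minus left, Mmp10 differed by 2.89, 4.96, 0.21 and 4.28 on the log2 scale in mustard animals 1, 3, 36 and 37. It was higher on the right in 5 of 5 octylhomovanillamide animals (0.04 to 2.26), 3 of 4 indomethacin animals (-0.06 to 3.33) and 2 of 4 dimercaprol animals (-0.40 to 0.47). Timp1 was higher on the right in 4 of 4 mustard animals (0.54 to 2.41) and in 4 of 4 indomethacin animals (1.21 to 1.70), in 4 of 5 octylhomovanillamide animals (-0.15 to 1.61) and in 2 of 4 dimercaprol animals (-0.19 to 1.12). Mmp14 was lower on the right in 4 of 4 mustard animals (-0.69 to -0.10) and in 4 of 4 dimercaprol animals (-0.41 to -0.14), in 3 of 4 indomethacin animals (-0.73 to 0.05) and in 1 of 5 octylhomovanillamide animals (-0.41 to 0.41). With 4 or 5 pairs in a group, the data allow no firm order among the drugs.

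Comparing the drugs with each other, 2 members were lower after dimercaprol than after indomethacin, where 11.2% of all probe sets changed: Mmp10 (-1.96, SE 0.51, limma adjusted p = 0.0104) and Timp1 (-0.85, SE 0.29, adjusted p = 0.0466). Without the indomethacin ear of animal 16, Mmp10 gave -1.42 (adjusted p = 0.0656) and neither was called, and the Timp1 call was lost without any of 8 of the 12 ears. With the animal as a fixed replicate block neither was called (adjusted p = 0.54 and 0.126). Under that block 144 of 15400 probe sets passed, against 1726 in the main fit. Between octylhomovanillamide and indomethacin no member passed, where 2.2% of probe sets did (Mmp10 -1.12, 95% interval -2.20 to -0.04, adjusted p = 0.249), and 2 had an unadjusted p under 0.05. Between dimercaprol and octylhomovanillamide no member passed, nor did any probe set (0%), and no member had an unadjusted p under 0.05 (Mmp10 -0.84, 95% interval -1.92 to 0.24). Doses and volumes differed, so these are differences between the treatments as given.

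By mean of log2(signal + 16), Mmp10 ran 9.03 after mustard alone, 7.38 after indomethacin then mustard, 6.26 after octylhomovanillamide then mustard, 5.42 after dimercaprol then mustard and 5.50 in methylene chloride ears. Neighbours by level did not pass the test: indomethacin and mustard alone (adjusted p = 0.0826), octylhomovanillamide and indomethacin (0.249), octylhomovanillamide and methylene chloride (0.428), dimercaprol and methylene chloride (0.948). Timp1 ran 10.11, 9.70, 9.14, 8.84 and 8.41 over the same groups, and Mmp3 ran 9.29, 9.19, 8.55, 8.48 and 8.39.

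Drugs without mustard were compared with ethanol ears, the left ears of animals 507, 515 and 520. Their right ears belong to the dimercaprol, indomethacin and octylhomovanillamide only groups in that order. Each comparison thus shares an animal between its sides, for which the main fit has no block. None of the 8 members tested passed after dimercaprol, indomethacin or octylhomovanillamide, nor did any of 16535 probe sets (0% in each), and 0, 1 and 0 members had an unadjusted p under 0.05. The 1 was Mmp3 after indomethacin, with 356.5, 391.1, 255 and 531.6 in indomethacin only ears and 863.7, 583.4 and 389.8 in ethanol ears (-0.63, SE 0.28, adjusted p = 0.676). Mmp10 was below the minimum for the test in this set, with 32.4 to 95.2 after indomethacin only, 42.5 to 80.7 after octylhomovanillamide only, 37.1 to 64.8 after dimercaprol only and 32.8 to 57.5 in ethanol ears.

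Methylene chloride ears were set against naive ears. Mmp8 (-0.88, SE 0.27, limma adjusted p = 0.0161) and Mmp9 (-0.67, SE 0.19, adjusted p = 0.00921) were lower in methylene chloride ears, 2 of 9 members, where 21.5% of all probe sets changed. Mmp8 averaged 103 ± 46.7 in methylene chloride ears (SD, n = 21) and had 137.5, 260.4, 183, 291.9 and 169.4 in naive ears, and Mmp9 averaged 219 ± 56.0 in methylene chloride ears and 309.9 to 412.9 in naive ears. Both calls were lost without naive animal 502 or 503 (highest adjusted p = 0.134 and 0.0813) and with no rescaling (adjusted p = 0.231 and 0.259). Animals without mustard are numbered from 501 and the mustard series from 1 to 38, so methylene chloride and the set of animals cannot be told apart. Mmp8 ranged from 65.2 to 316 in the drug only ears and from 144.3 to 230.7 in ethanol ears.

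**Figure D4:**
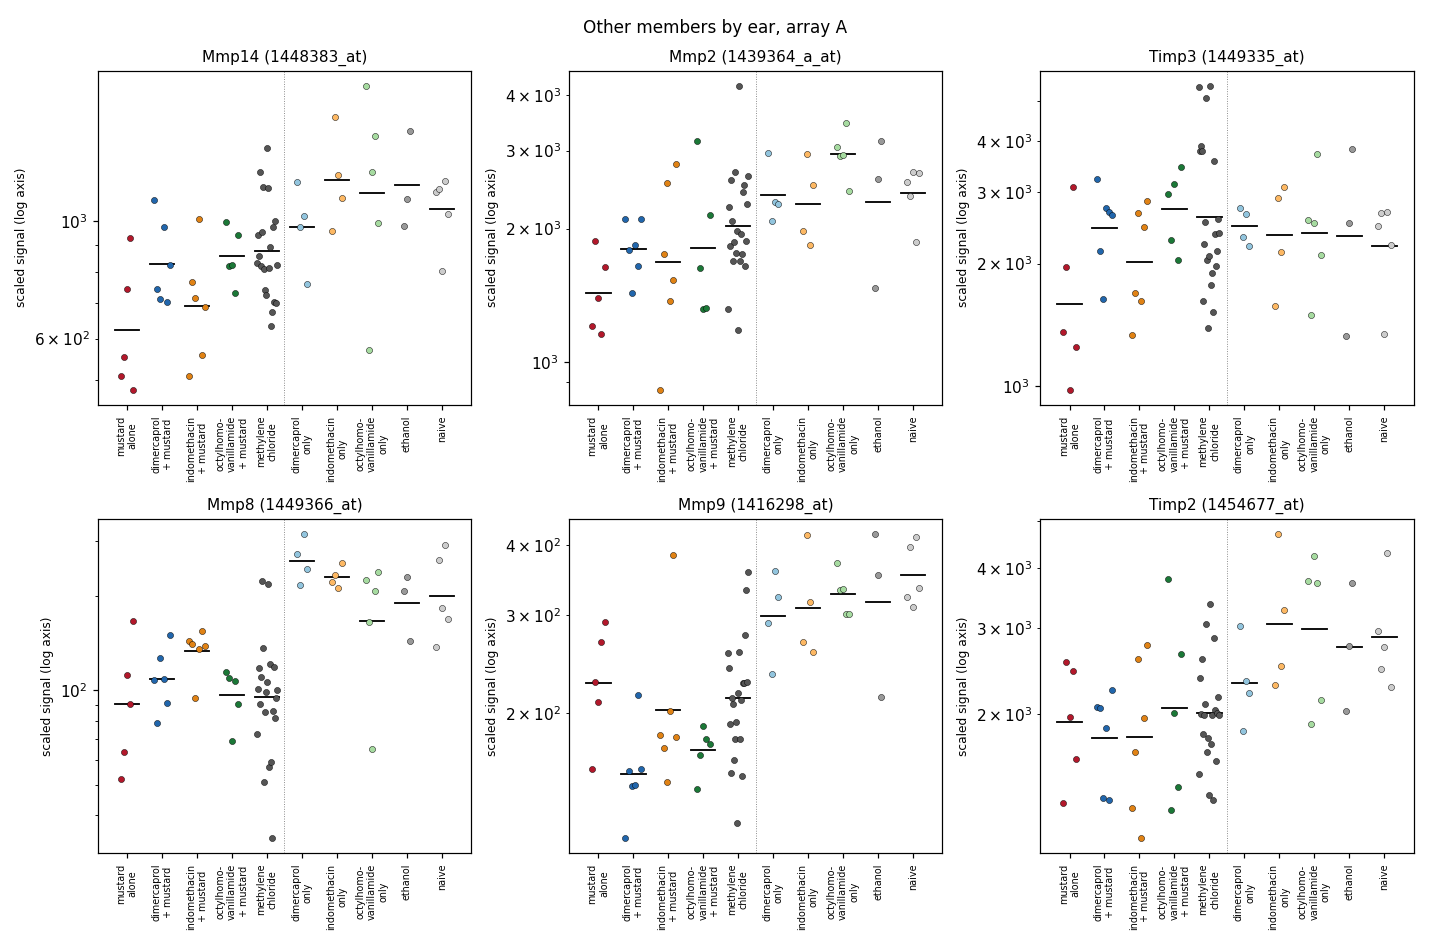
Scaled signal (log axis) of Mmp14, Mmp2, Timp3, Mmp8, Mmp9 and Timp2 in each ear of array A by group, with bars at the mean of log2(signal + 16). Animals right of the dotted line were given no mustard or methylene chloride, and methylene chloride ears left of it have medians of 99 for Mmp8 and 213.4 for Mmp9, against 183 and 334.8 in naive ears.

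The other genes of the pathway were taken from lists. Of 17 other matrix metalloproteinases and Timp4, 4 could be tested and none passed between mustard and methylene chloride ears: Timp4 gave -0.51 (limma adjusted p = 0.0522), Mmp23 0.42 (0.197), Mmp16 0.21 (0.325) and Mmp24 0.02 (0.927). Of 16 Adam and Adamts proteases, 11 were tested, and 2 were higher and 3 lower, where 19.8% and 24.5% of all probe sets were. Adam8, a protease of leukocytes, was higher (0.84, SE 0.15, adjusted p = 1.73e-05), and Adam9 (-0.45), Adam12 (-0.82) and Adam17, the sheddase of growth factors and cytokines (-0.28), were lower. Adam8 was lower again after dimercaprol (-0.78) and octylhomovanillamide (-0.86) than with mustard alone. It was named by its adjusted p in the same mustard ears, which favours a change the opposite way.

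Among 24 activators and other inhibitors, 18 were tested, and 6 were higher and 2 lower with mustard. Of all probe sets, 19.8% were higher and 24.5% lower. Lcn2, a lipocalin that binds and stabilises Mmp9 protein, rose by 3.6 on the log2 scale (SE 0.32, limma adjusted p = 9.33e-12). St14, the epithelial serine protease matriptase (0.74), and Plaur, the urokinase receptor (1.35), also rose, and Pcsk6, a proprotein convertase, fell (-1.003). Against mustard alone all 4 changed the opposite way after dimercaprol (Lcn2 -2.34, St14 -0.55, Plaur -1.05, Pcsk6 0.87) and after octylhomovanillamide (-1.55, -0.63, -0.91 and 0.77). After indomethacin none of these 4 passed (-0.51, -0.31, -0.41 and 0.45, adjusted p = 0.478, 0.0785, 0.292 and 0.153). These 4 were named by their adjusted p in mustard against methylene chloride, and both comparisons use the same mustard ears. A change the opposite way is thus favoured by how they were picked.

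Of 22 matrix substrates, 21 were tested, and 2 were higher and 4 lower with mustard, where 19.8% and 24.5% of all probe sets were. Named by adjusted p, Col17a1, a collagen of hemidesmosomes (-0.82, SE 0.11, limma adjusted p = 1.66e-07), Lamb3, a laminin 332 chain (-0.81), and Col7a1, the anchoring fibril collagen (-0.56), fell, while Vcan, the proteoglycan versican, rose (0.67). The median over the list was -0.18. None of these 4 differed from mustard alone by the test after any of the 3 drugs, with Col17a1 nearest (0.32, adjusted p = 0.074 after dimercaprol).

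Of 20 AP-1 and cytokine inducers, 14 were tested, with 8 higher, 1 lower and a median of 0.55. Among all probe sets 19.8% were higher and 24.5% lower. Fosl1, a Fos family partner in AP-1 (2.42, SE 0.30, limma adjusted p = 2.22e-08), Il1b, the inflammatory cytokine interleukin 1 beta (2.38), Hbegf, a ligand of the epidermal growth factor receptor (2.65), and Junb, a Jun family partner (1.33), rose. Against mustard alone 7 of the 14 were lower after dimercaprol, 6 after octylhomovanillamide and 1 after indomethacin, where 11.5%, 6.86% and 0.766% of all probe sets were lower. Fosl1 gave -1.97, -1.43 and -0.47 after dimercaprol, octylhomovanillamide and indomethacin, and the last of these did not pass (adjusted p = 0.495). Il1b was lower after all 3 (-2.48, -2.02 and -1.37). Fosl1 and Il1b were named by their adjusted p in mustard against methylene chloride, so falls against the same mustard ears are favoured by that choice. The lists were chosen with results of these data known, and their counts are a description.

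**Figure D5:**
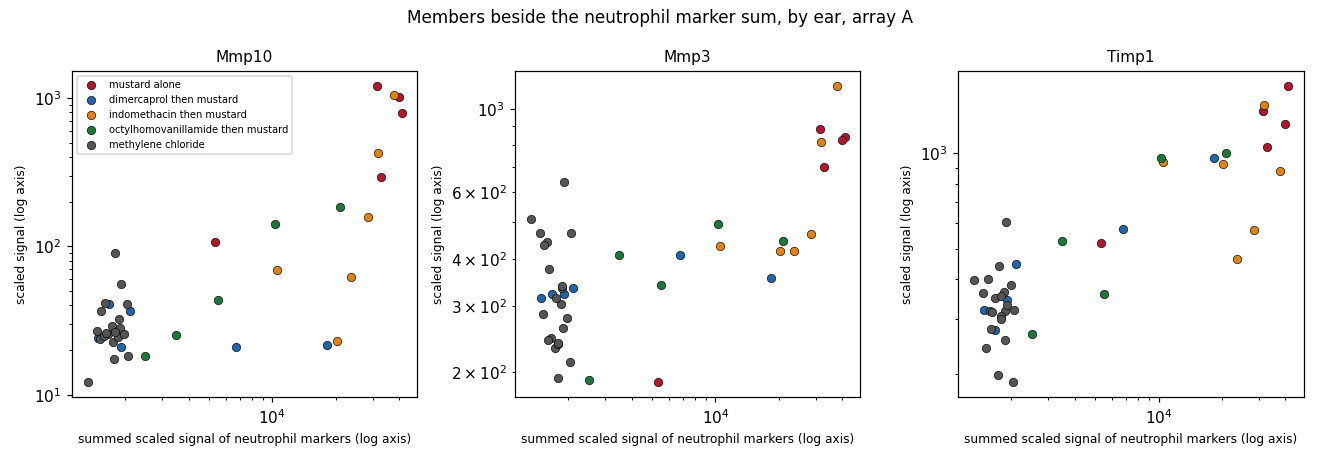
Scaled signal (log axis) of Mmp10, Mmp3 and Timp1 against the summed signal of 11 neutrophil markers (log axis) in the 43 ears of the mustard series. Methylene chloride ears have sums of 1329 to 2066, and the mustard ear of animal 36 has a sum of 5330 and lies apart from the other 4.

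The marker sum, most of it from S100a8 and S100a9, was set beside the 3 induced members ear by ear. Indomethacin then mustard ears had sums of 10530 to 37800, within the range of mustard ears (5330 to 41070). In this group the ears of animals 16, 22 and 19 had the highest sums (37800, 31710 and 28350). They also had its highest Mmp10 signals (1050.3, 425.5 and 157.9). The other 3 of the 6 ears had Mmp10 signals of 23, 69 and 62.4, inside the methylene chloride range. The dimercaprol ear of animal 12 had a sum of 18270 with Mmp10 at 21.7 and Timp1 at 963.5. Of the 7 neutrophil markers tested, 5 were lower than with mustard alone after dimercaprol, 5 after octylhomovanillamide and none after indomethacin. In these comparisons 11.5%, 6.86% and 0.766% of all probe sets were lower. The part of cell numbers in the members' levels was not tested.

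The genes nearest in pattern to each member were ranked by Pearson's r of log2 values over the 43 ears, which share group, array brightness and cell mix. Nearest to Mmp10 were Mafk, a small Maf transcription factor (0.885, and 0.786 after removal of group means), Nppb, a natriuretic peptide (0.88 and 0.744), and Plet1 (0.877 and 0.752). To Timp1 they were Phlda1 (0.92 and 0.8), Ptx3, an acute phase pentraxin (0.914 and 0.821), and Praf2 (0.905 and 0.762), and to Mmp3 they were S100a10 (0.817 and 0.726), Ptx3 (0.805 and 0.691) and Hbegf (0.802 and 0.716). Timp2 lay near Col1a2, a chain of type I collagen (0.897 and 0.896), Mxra8 (0.896 and 0.903) and Mgp, matrix Gla protein (0.895 and 0.904). Mmp2 lay near Plod1, a collagen lysyl hydroxylase (0.842 and 0.854), Col5a2 (0.828 and 0.82) and Col4a1 (0.816 and 0.795). Timp3 lay near Rbpms (0.764 and 0.717), Col6a3 (0.759 and 0.729) and Ccdc80 (0.752 and 0.705), and Mmp14 near Wwtr1, a transcriptional coactivator of the Hippo pathway (0.712 and 0.63), Irs1 (0.676 and 0.508) and Atf6 (0.665 and 0.52). Values for Mmp9 (Atf5 0.617, Il7r 0.579, Arhgap9 0.55) and Mmp8 (Kansl1 0.528, Kdr 0.487, Tnip2 0.473) were lower. Among the members themselves, Mmp2 and Timp2 gave 0.759 (0.799 after removal of group means), Mmp10 and Timp1 0.747 (0.405), and Mmp3 and Mmp10 0.734 (0.596).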

How the data were processed

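Per the labels, 10 µg of total RNA from each 8 mm biopsy was hybridised to Affymetrix arrays. The deposited values are linear intensity signals per probe set. They came from MAS5, per the submitters' processing notes, and its version and settings are not given in the sources used here. No scaling was visible: trimmed means differed by 4.01 times between arrays of array A and by 2.77 times on array B. Precision is set by how many arrays each group has.

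Signals were multiplied, array by array, so that the mean without the top and bottom 2% became 500. Log2 of signal plus 16 was fitted by limma 3.58.1, using lmFit and a trended eBayes step (R 4.3.3; tables were read by data.table, version 1.17.8), on probe sets with a mean of at least 100, without control probe sets: 15400 for the mustard series on array A, 17250 on array B, 16535 for animals without mustard and 15925 for all ears. P-values are 2-sided, Benjamini-Hochberg adjusted, with a threshold of 0.05. Naive ears of an animal were averaged. The mustard series model was tried on simulated independent ears, all with the spread of methylene chloride ears. Unequal spread, ears that share an animal and RNA quality were not simulated. Where a gene had several kept probe sets, the brightest by mean log2 signal stands for it. Symbols come from GEO's platform annotation, in which 20393 probe sets of array A have 1 symbol, 691 several and 1606 none. Replicates are ears that the labels number by animal.

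Left and right ears share an animal, so the number pairs them. Over the 17 such pairs of the mustard series, deviations from group means correlated by 0.173 on average (-0.1 to 0.453, against -0.0271 for different animals). The main fit has no block; a random block changed no count of members called.

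The members and lists were chosen with earlier results of these data known. Named beside the members are up to 4 genes per list, ranked by adjusted p for mustard against methylene chloride, marker genes, and the 3 genes most like each member. Promoter sequences are RefSeq's (GRCm38.p6). Alternatives were no rescaling, quantile normalization, another pseudocount (64), a floor, other signal minimums (none, 300), no trend, replicate blocks, 2 quality covariates, means over probe sets, smaller fits, naive in place of ethanol and ears left out.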

Additional observations from a re-analysis of the deposited data

Results flagged for a closer look

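Of 74 sets of member values in groups of 4 to 10 ears, 6 had an ear far from the others, and chance gives about 1 in 20. In mustard ears, Mmp3 was 187.8 in animal 36 against 700.1 to 884 in the others. After indomethacin then mustard, Mmp9 was 383.9 in animal 21 against 151.1 to 202.2, and Mmp8 was 94.8 in animal 18 against 135.6 to 155.1. After dimercaprol then mustard, Mmp13 was 1.5 in animal 8 against 12.5 to 18.5, both below the minimum for a test. After octylhomovanillamide only, Mmp10 was 80.7 in animal 518 against 42.5 to 48.8, and Mmp3 was 610.6 in animal 520 against 371.8 to 396.8.

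Set against each other, the drugs differed for 2 members, each lower after dimercaprol than after indomethacin by the limma test of the difference: Mmp10 with a log2 fold change of -1.96 and Timp1 with -0.85. Neither was called with the animal as a fixed replicate block (Mmp10 -1.29, adjusted p = 0.54, Timp1 -1.27, adjusted p = 0.126) or without the indomethacin ear of animal 16. Under that block 144 of 15400 probe sets passed, against 1726 in the main fit.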

How the results depend on the processing

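Among alternatives for called folds of members, 192 left direction and call as they were, 56 ended the call and 1 reversed. Mmp10 and Timp1 kept their calls for mustard against methylene chloride under every setting in which they were tested. At a minimum of 300 Mmp10 was not tested. The 6 calls of that comparison became 2 with the Gapdh ratio or array brightness as a covariate and 2 without mustard ears 5 and 37, 8 with no rescaling (2 higher and 6 lower, in place of 3 and 3), and ranged from 4 to 6 with 1 ear left out. For dimercaprol against mustard alone, 3 became 1 with brightness, 5 with means over probe sets, 6 with no rescaling, 0 with the fixed replicate block and 1 without ears 5 and 37 (2 to 5 with 1 ear left out, 5 without mustard ear 36). The Mmp3 call alone was lost with the Gapdh ratio, with no filter or in the groups compared alone. Over all probe sets, the 4302 calls of that comparison became 1790 with the Gapdh ratio and 347 with brightness. They became 332 with the fixed replicate block and 1459 without ears 5 and 37. For octylhomovanillamide against mustard alone, 2 became 0 with either covariate, in the groups compared alone, with the fixed replicate block or without ears 5 and 37, 1 at a minimum of 300 and 6 with no rescaling (1 to 5 with 1 ear left out, 5 without mustard ear 36). For indomethacin against mustard alone, 0 became 4 with no rescaling (0 to 1 with 1 ear left out). Over all 15400 probe sets with no rescaling, 12876 were higher and 64 lower after dimercaprol than with mustard alone. After octylhomovanillamide 10804 were higher and 34 lower, and after indomethacin 5963 were higher and 1 lower. The member counts under that setting are to be read against these broad shifts. Against methylene chloride, the 4 calls of indomethacin became 2 with the fixed replicate block, and the 0 of octylhomovanillamide became 1 in the groups compared alone (0 to 1, 1 without ear 28). For indomethacin the Mmp14 call alone was lost with either covariate, means over probe sets, no filter or no rescaling. Small moves of a count are not all listed in this section. For dimercaprol against indomethacin, 2 became 1 with either covariate, at a minimum of 300, with no filter, no rescaling or no trend, and 0 in the groups compared alone or with the fixed replicate block (0 to 2 with 1 ear left out). For methylene chloride against naive, 2 became 0 at a minimum of 300 or with no rescaling, 4 in the groups compared alone and 1 with quantile normalization (0 to 2 with 1 ear left out). On array B, the 0 for dimercaprol against mustard alone became 1 with no rescaling. With no rescaling, 3 folds reversed: Mmp3 after dimercaprol to 0.0784, Timp2 after dimercaprol to 0.7934, both against mustard alone, and Mmp9 in mustard against methylene chloride to -0.4999. Under that setting the median of all probe sets was 0.87 for dimercaprol against mustard alone and -0.61 for mustard against methylene chloride. Relative to those medians the folds were -0.8 for Mmp3, -0.08 for Timp2 and 0.11 for Mmp9, each with the sign of the main fit. Why the arrays differ in brightness was not tested. The random replicate block changed no count. Dim members (Mmp13, the second Mmp9 probe set) lie below the minimum signal, which limits what can be said of them. Mmp10 lies below 100 in all methylene chloride and all dimercaprol then mustard ears, and was tested through its signal in other ears.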
